A study of Pichia kudriavzevii with 6 samples.

Results

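Among 5464 genes of the yeast Pichia kudriavzevii, 45 were far more abundant in medium with succinic acid and no glucose than in either medium that held glucose. Each of the 45 had a mean level in the glucose-free medium at least 16 times that in both glucose media, and a level of at least 20 there. They were selected on their mean level over the 2 libraries of each medium, in CPM (the gene's count scaled to a library total of 1000000) with 1 added. In all, 55 genes (1.01%) met the ratio over glucose alone, 57 (1.04%) met the ratio over the mixed medium, and 46 met both, of which 1 was below the level of 20, which left 0.824% of all genes. Since these measured levels chose the genes, the size of their rise is described here without a test. Succinic acid was present and glucose absent in the medium where they were high, and no medium lacked both, so the loss of glucose alone and its replacement by succinic acid cannot be told apart.

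All cells, in every medium, belonged to strain CY902 and lacked URA3 (delta-URA3), a gene of uracil synthesis used as a selection marker. They were grown for 24 hours in synthetic dextrose medium, washed, and moved for 3 hours to fresh medium at pH 5.0 and 30 °C. That medium held 2% glucose (SoleG), 2% glucose with 2% succinic acid (GS), or 2% succinic acid as the only carbon source (SoleS), each with 2 libraries. The labels do not say whether the 2 libraries came from separate cultures, and the p-values given here reflect the spread between these 2 libraries, which may be technical. The counts came from whole cultures, in which a rise in every cell and a larger rise in some of the cells cannot be told apart. Library totals were 6024768 to 6959188 counts.

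In baker's yeast, Saccharomyces cerevisiae, glucose represses a large set of genes through repressor proteins that bind DNA, and the kinase Snf1 lifts this repression once glucose runs out. The genes so controlled include those of gluconeogenesis, the glyoxylate cycle, respiration, the use of other carbon sources, and carriers that import carboxylic acids. Succinic acid is a dicarboxylic acid of the citric acid cycle, and cells that live on it must make glucose phosphates from it. The series set out to find carriers of such acids. The gene IDs (PK and a number) come without names in the files, and 0 of them matched the reference gene table, so no role can be given to any of the 45 genes and no list of genes of known pathways could be set beside them. They are described by ID, coding length and level, and the number of near-identical copies among them is not known.

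In SoleG the 45 genes ranged from 0.376 to 603 CPM with a median of 23.3 CPM, while the median of all genes was 61.2 CPM. In GS they ranged from 0.0741 to 211 CPM with a median of 18.0 CPM. In SoleS they ranged from 53.4 to 49519 CPM with a median of 2301 CPM, and 35 of them reached 1000 CPM. A description as nearly silent with glucose held for some of them only: 8 genes were below 5 CPM, and 13 below 10 CPM, in both glucose media. At the other end, 10 genes had at least 50 CPM in SoleG and 4 had at least 100 CPM, and 5 lay at or above the median of all genes. PK3748 was the clearest exception, at 528 and 678 CPM in SoleG.

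**Figure D1:**
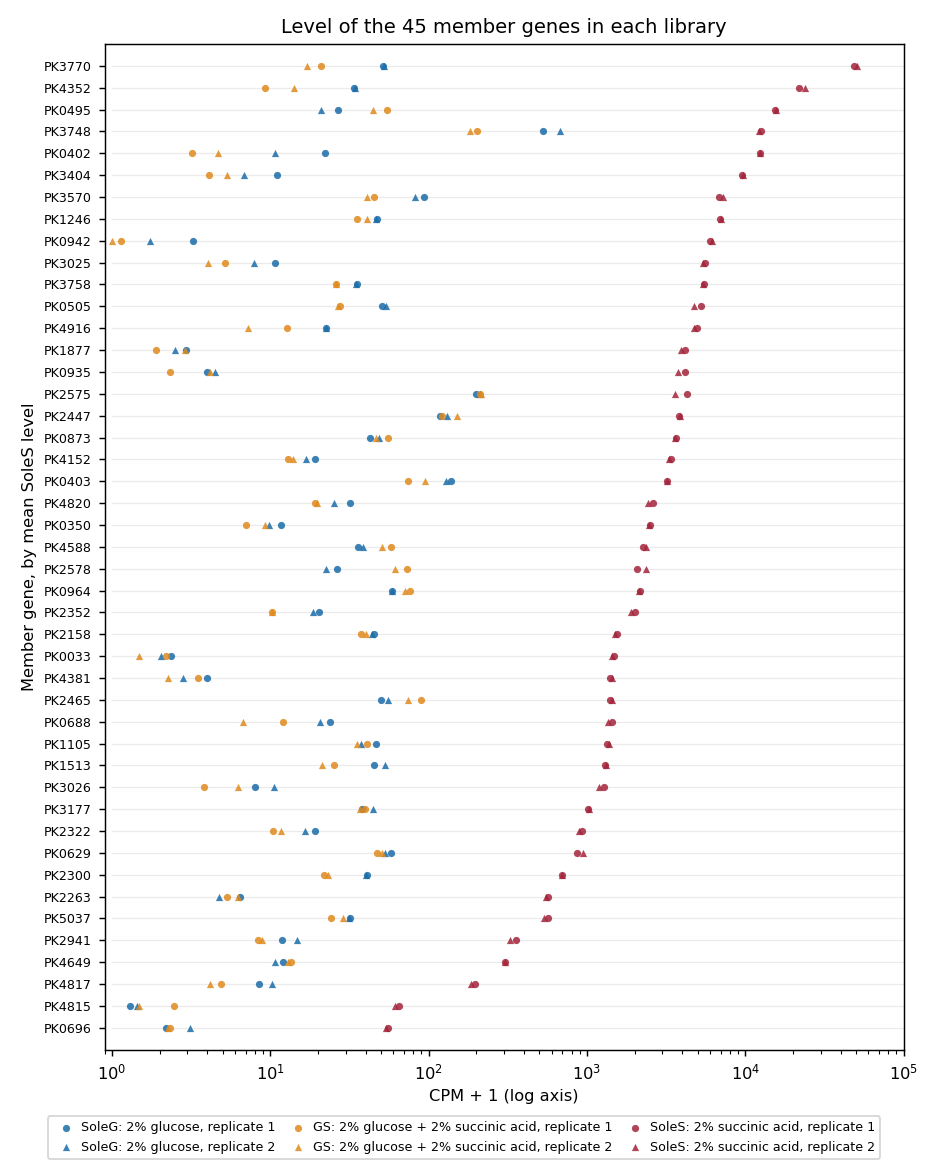
Level of the 45 genes in each of the 6 libraries, as CPM + 1 on a log axis, ordered by mean SoleS level; circles are replicate 1 and triangles replicate 2. For every gene both SoleS points lie to the right of all 4 points with glucose, and the glucose points spread from below 1 CPM to 678 CPM.

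The genes most abundant in SoleS came from very different starting levels. PK3770, of 1134 bases, had 50.8 and 51.6 CPM in SoleG, 19.9 and 16.1 CPM in GS, and 48396 and 50642 CPM in SoleS. It was the most abundant of all 5464 genes in SoleS and ranked 3046 in SoleG. PK4352, a short gene of 204 bases, had 32.9 and 33.5 CPM in SoleG, 8.30 and 13.1 CPM in GS, and 21884 and 23913 CPM in SoleS, where it ranked 2 of all genes. Both were lowest in the mixed medium, with no overlap between the media.

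PK0495, of 471 bases, showed the other order of the glucose media. It had 25.7 and 19.9 CPM in SoleG, 53.4 and 43.4 CPM in GS, and 15393 and 15682 CPM in SoleS, where it ranked 3 of all genes. PK3748, of 585 bases, had 200.6 and 183 CPM in GS and 12551 and 12286 CPM in SoleS, so it joined the most abundant genes through a high level and not through a large ratio, which was 20.6 over SoleG. PK0402, of 1683 bases, had 21.0 and 9.78 CPM in SoleG, 2.22 and 3.67 CPM in GS, and 12305 and 12429 CPM in SoleS.

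The next in order of level were PK3404, PK3570 and PK1246. PK3404, of 2106 bases, had 10.1 and 5.87 CPM in SoleG, 3.11 and 4.31 CPM in GS, and 9605 and 9681 CPM in SoleS. PK3570, of 2016 bases, had 93.3 and 81.1 CPM in SoleG, 44.2 and 40.0 CPM in GS, and 6842 and 7195 CPM in SoleS. PK1246, of 849 bases, had 46.6 and 45.6 CPM in SoleG, 34.2 and 40.0 CPM in GS, and 6926 and 7044 CPM in SoleS. In these 3 genes, as in PK3770, PK4352, PK3748 and PK0402, both GS libraries were below both SoleG libraries. The same order in CPM held in 51.9% of all genes with any count, so it does not set these genes apart. PK1246 did not pass the test of GS against SoleG described below (log2 -0.17, edgeR adjusted p = 0.246).

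Levels of different genes can be compared only per length, and the order then changed. Per kilobase of coding length, PK4352 was first among all genes in SoleS at 112247 CPM per kilobase, ahead of PK3770 at 43668. PK2578, of 201 bases, the shortest of the 45, moved from rank 24 among them by CPM to rank 5, at 11038 CPM per kilobase. The longest, PK2322 of 3672 bases, was at 248 CPM per kilobase and ranked 41 of the 45. It had 18.2 and 15.5 CPM in SoleG, 9.49 and 10.7 CPM in GS, and 925 and 893 CPM in SoleS. Coding lengths of the 45 were otherwise ordinary, with a median of 1269 bases against 1215 over all genes. Of the 45, 7 (15.6%) were shorter than 600 bases and 9 (20%) longer than 2000 bases, against 19.7% and 21.9% of all genes.

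Together the 45 genes went from a trace of the counts to a substantial part of them in SoleS. Their share was 0.206% and 0.218% in the SoleG libraries, 0.152% and 0.149% in the GS libraries, and 21.8% and 22.1% in the SoleS libraries. The SoleS mean was 22.0% ± 0.19 (SD, n = 2). The 5 most abundant genes made up 51.3% of the members' SoleS counts and 17 genes made up 80%. PK3770 alone held 4.95% ± 0.16 of all SoleS counts (SD, n = 2), and without it the share of the others was 17.0%. Of the 10 most abundant genes in SoleS, 6 were among the 45, as were 20 of the top 50 and 33 of the top 100, while none was in the top 100 of SoleG or GS. The median ratio of the other 5419 genes was 0.904 for SoleS over SoleG and 1.0 for SoleS over GS.

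**Figure D2:**
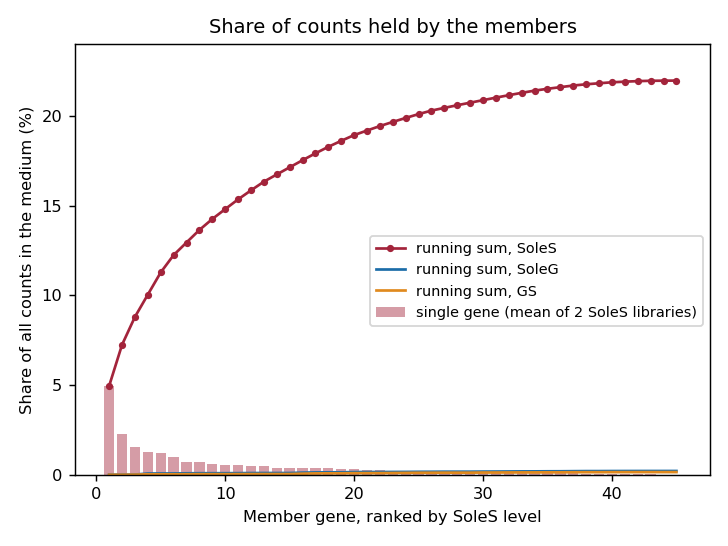
Share of all counts in a medium, in percent, held by the 45 genes ranked by SoleS level; bars give single genes in SoleS and lines the running sum in each medium (means of 2 libraries). The SoleS line climbs to 22.0%, while the SoleG and GS lines end at 0.212% and 0.151%.

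Ratios between SoleS and the glucose media varied widely within the set. Over SoleG they ran from 16.4 to 2439 with a median of 79.6, and over GS from 17.3 to 5683 with a median of 96.5. Over SoleG, 14 genes lay between 16 and 32, 13 between 32 and 100, 8 between 100 and 500, and 10 above 500. For 9 genes both ratios were above 500. These 9 were PK3770, PK4352, PK0402, PK3404, PK0942, PK3025, PK1877, PK0935 and PK0033. The lowest SoleS library was at least 16 times the highest SoleG library in 44 of the 45 genes, and at least 16 times the highest GS library in 44.

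Some of the largest ratios belonged to genes with few counts in glucose, and the size of those ratios is accordingly loose. PK3770, with a ratio of 949 over SoleG, had 681 counts in the SoleG libraries and was not among them. The SoleG libraries held 15 and 5 counts of PK0942, a gene of 1260 bases, the GS libraries 1 and 0, and the SoleS libraries 41880 and 37284. Scaled by library totals, its SoleS count was 4056 times that in SoleG (95% exact counting interval 2626 to 6641). Over GS the count ratio was 79346, with an interval of 14241 to 3134038 since it rests on 1 count. In GS replicate 2, where it had no count, a level of up to 0.479 CPM (3 counts) remains possible. These intervals and limits cover counting error only.

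PK1877 and PK0935 were nearly as silent. PK1877, of 2250 bases, had 13 and 10 counts in the SoleG libraries, 6 and 12 with succinic acid added, and 28785 and 23610 without glucose, a count ratio over SoleG of 2334 (interval 1556 to 3683). PK0935, of 849 bases, had 20 and 23 counts in the SoleG libraries, 9 and 20 with succinic acid added, and 29089 and 22647 without glucose, a count ratio over SoleG of 1233 (interval 915 to 1704). For these 3 genes the ratios with 1 added to the CPM, 2439, 1476 and 938 over SoleG, are smaller than the count ratios because the added value is close to the level itself. With 5 added they were 939, 599 and 483. With 1 added, the ratios of PK3770, PK3404 and PK0402 were 949, 1076 and 754 over SoleG and 2608, 2048 and 3134 over GS. The PK0402 ratio over SoleG was 1148 without SoleG replicate 1, whose 140 counts were above the 65 of replicate 2.

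**Figure D3:**
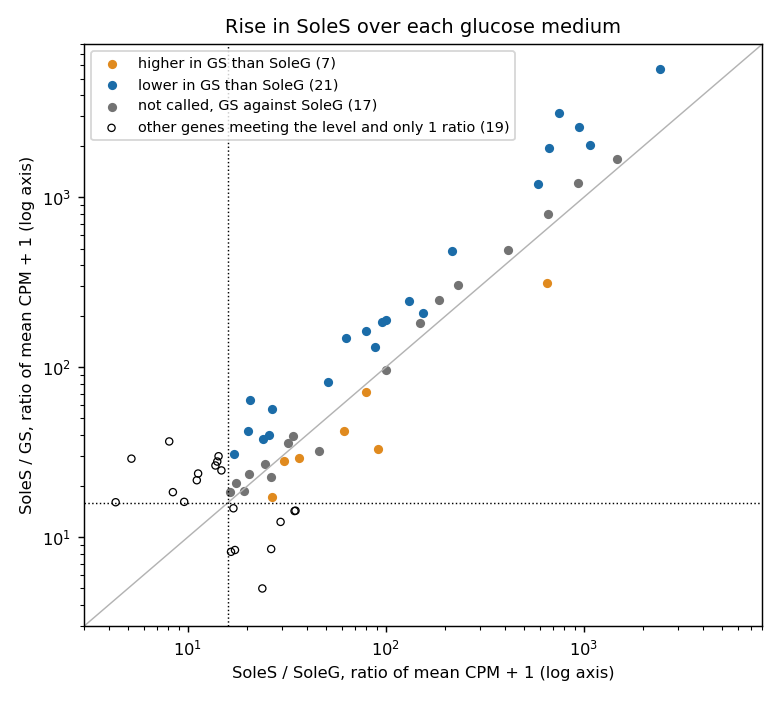
Ratio of SoleS to GS against ratio of SoleS to SoleG (mean CPM + 1, log axes) for the 45 genes, coloured by the test of GS against SoleG, with the 19 genes of sufficient SoleS level that met only 1 of the ratios as open circles; dotted lines mark 16 and the grey line equality. The genes reach 2439 on the horizontal and 5683 on the vertical axis, and 34 of the 45 lie above the line of equality. Above that line the mean CPM is lower in GS than in SoleG. In CPM, both GS libraries were below both SoleG libraries in 51.9% of all genes with any count and in 27 of the 45. They were above in 21.2% of all genes and in 7 of the 45.

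The set had neighbours just outside each threshold. Just inside the ratio over SoleG were PK0629 at 16.4 and PK2300 at 17.2, and just outside were PK5169 at 14.8 and PK4963 at 14.3. PK5169 was abundant, at 848 and 784 CPM in SoleG and 12341 and 11861 CPM in SoleS. Just inside the ratio over GS were PK2465 at 17.3 and again PK0629 at 18.4, and just outside were PK3441 at 14.8 and PK5053 at 14.3. PK5053 had 279 and 371 CPM in SoleG, 774 and 818 CPM in GS, and 11717 and 11137 CPM in SoleS. The threshold on the level mattered little. The lowest members were PK0696 and PK4815 with values of 54.4 and 63.4 in SoleS, and PK3544, at 18.9, was the only gene left out by it. Among genes at or above the level of 20 in SoleS, 8 met the ratio over SoleG and not over GS, and 11 met the ratio over GS and not over SoleG.

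The comparison of GS with SoleG asked how these genes responded to succinic acid while glucose was still present. It is the one contrast whose ratio the choice of genes did not use, although both levels were capped by it. Of the 45 genes, 21 were lower in GS and 7 were higher, and 17 did not pass the test (adjusted p below 0.05 by the quasi-likelihood test of edgeR, with Benjamini-Hochberg adjustment over 5280 genes). All 45 passed the filter on low counts, which their SoleS counts alone could ensure. Over all genes tested, 17.6% were called lower and 20% higher, against 46.7% and 15.6% of the 45. The median log2 fold change was -0.31 for the 45 and -0.01 for all genes tested. At least 2-fold falls were called in 9 of the 45 (20%) and in 1.91% of all genes, and at least 2-fold rises in 2 of the 45 and in 2.61% of all genes.

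Scaling by total counts in place of TMM factors (scaling factors that assume most genes do not change) moved the median of all genes to -0.15. It gave 23 lower and 5 higher among the 45, with 32.4% of all genes called lower and 13.2% higher. On the TMM scale, both GS libraries were below both SoleG libraries in 24 of the 45 genes and above them in 10, and the media overlapped in 11. Over the 5343 genes with any count these shares were 34.0% below and 33.8% above. In the fit to the 4 SoleG and GS libraries alone, 41 of the 45 passed the filter, and 18 were lower and 8 higher. Of all genes tested in that fit, 17.5% were called lower and 20.4% higher.

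**Figure D4:**
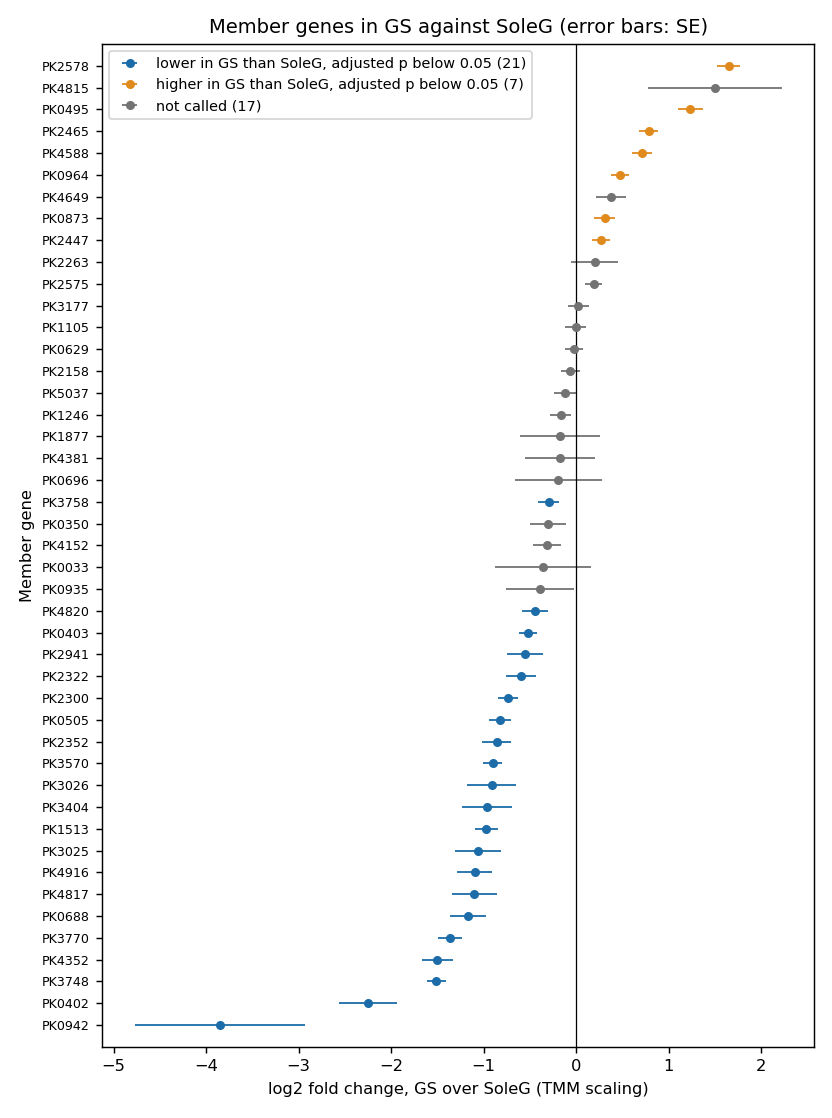
Log2 fold change of GS over SoleG for each of the 45 genes (TMM scaling, edgeR), with bars for the standard error and colours for the test. Values run from -3.85 for PK0942 to 1.65 for PK2578, with 33 genes below 0 and 12 above. Of all genes tested, 51.3% were below 0.

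The genes that fell most in GS were among those already described. PK0942, with 20 counts in the SoleG libraries and 1 in the GS libraries, changed by -3.85 ± 0.92 on the log2 scale (SE; edgeR adjusted p = 0.00182). The count ratio of SoleG to GS had a counting interval of 3.13 to 811. Its log2 value was -2.89 with an adjusted p of 0.0549 without SoleG replicate 1, and -6.23 without GS replicate 1, when no GS count was left and the data set no limit to the fall. Without GS replicate 2 it was -3.04. PK0942 passed the filter on low counts through SoleS only, and in the fit to the SoleG and GS libraries alone it was filtered out and had no test. PK0402 fell 4.74-fold (log2 -2.25 ± 0.31 SE; edgeR adjusted p = 4.23e-06), with a log2 value of -1.61 without SoleG replicate 1. PK3748 fell 2.85-fold (log2 -1.51 ± 0.10 SE; edgeR adjusted p = 5.88e-11), from the highest SoleG level of the set. PK4352 fell 2.83-fold and PK3770 fell 2.57-fold (edgeR adjusted p = 1.19e-07 and 1.38e-08). Of the 5 members most abundant in SoleS, 4 were called lower in GS than in SoleG, and the other, PK0495, was called higher. Over all genes tested, 17.6% were called lower and 20% higher, and a link with the SoleS level was not tested.

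The 7 genes higher in GS included the shortest gene of the set. PK2578 had 25.2 and 21.4 CPM in SoleG, 72.1 and 60.1 CPM in GS, and 2067 and 2370 CPM in SoleS. It rose 3.14-fold in GS (log2 1.65 ± 0.12 SE; edgeR adjusted p = 2.91e-10). PK0495 rose 2.35-fold (log2 1.23 ± 0.13 SE; edgeR adjusted p = 9.42e-08). For both, the step from SoleG to GS was small beside the ratios of SoleS to GS of 33.1 and 315.

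PK2465, PK4588 and PK0964 rose less. PK2465 had 49.3 and 54.5 CPM in SoleG, 88.5 and 72.9 CPM in GS, and 1389 and 1435 CPM in SoleS, a 1.72-fold rise in GS (edgeR adjusted p = 2.16e-06). PK4588 had 34.8 and 37.6 CPM in SoleG, 57.2 and 49.9 CPM in GS, and 2245 and 2358 CPM in SoleS, a 1.64-fold rise in GS (edgeR adjusted p = 1.32e-05). PK0964 had 58.0 and 57.9 CPM in SoleG, 75.5 and 70.0 CPM in GS, and 2162 and 2128 CPM in SoleS, a 1.39-fold rise in GS (edgeR adjusted p = 0.0003). In all 3 genes both GS libraries lay above both SoleG libraries in CPM, as in 21.2% of all genes with any count. The 2 remaining genes of the 7, PK0873 and PK2447, were 1.24-fold and 1.20-fold higher (edgeR adjusted p = 0.0328 and 0.0316). PK0873 had 41.9 and 47.4 CPM in SoleG and 54.1 and 45.8 CPM in GS. PK2447 had 118 and 130 CPM in SoleG and 121 and 149 CPM in GS. In both genes the media overlapped in CPM, and both GS libraries lay above both SoleG libraries only on the TMM scale. With scaling by total counts, 5 of the 7 were still called higher.

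The genes lower and those higher in GS are set side by side here by their levels, with no test of the difference. The 21 lower in GS had a median SoleS level of 4844 CPM and a median ratio over SoleG of 95.6, with 10 of them at a ratio of 100 or more. The 7 higher in GS had a median SoleS level of 2301 CPM and a median ratio over SoleG of 61.8, with 1 at 100 or more. The 17 not called had a median SoleS level of 1420 CPM and a median ratio over SoleG of 46.1, with 7 at 100 or more. They had 18 to 5473 counts in the 4 glucose libraries together. PK4815, with 2 and 3 counts in SoleG and 10 and 3 in GS, had a value of 1.50 ± 0.72 on the log2 scale (SE; edgeR adjusted p = 0.109). With so few counts in the glucose media, this test cannot decide whether PK4815 changed. In the fit to the SoleG and GS libraries alone, 41 genes of the set passed the filter, so some were testable through their SoleS counts only.

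Replicate libraries repeated closely where the genes were abundant. The median distance between the 2 libraries of a medium, as the absolute log2 ratio of CPM + 1, was 0.20 in SoleG, 0.24 in GS and 0.05 in SoleS. All other genes between the lowest and the highest member had 0.12, 0.12 and 0.08 (5014, 4469 and 2616 genes). These genes were not matched to the members by level within that range, so the difference cannot be told apart from one of level. The widest pair in SoleG was PK0402 at 1.03 and the widest in GS was PK0688 at 0.85, the latter with 75 and 36 counts. In SoleS the widest was PK2575 at 0.25, with 4316 and 3617 CPM.

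Some of the 45 genes stood next to each other in the numbering of IDs. Whether that numbering follows the order on the chromosomes is not known from the files. Adjacent members were PK0402 with PK0403 and PK3025 with PK3026. PK0403, of 1620 bases, had 137 and 127 CPM in SoleG, 73.7 and 93.3 CPM in GS, and 3217 and 3183 CPM in SoleS, so it was well expressed in glucose where PK0402 was not. PK3025 and PK3026 had the same coding length, 1638 bases, and 16 of the 5463 pairs of adjacent IDs in the files have equal coding lengths. PK3025 had 9.76 and 6.92 CPM in SoleG, 4.15 and 3.03 CPM in GS, and 5585 and 5408 CPM in SoleS. PK3026 had 7.06 and 9.63 CPM in SoleG, 2.82 and 5.26 CPM in GS, and 1273 and 1187 CPM in SoleS. Both fell in GS, by 2.08-fold and 1.88-fold (edgeR adjusted p = 0.00153 and 0.00783), and reads shared between them, if they are copies, cannot be told apart. At a distance of 2, PK4815 and PK4817 were both members.

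Genes with an ID next to a member, and not members themselves, also tended to be higher in SoleS. Of 85 such genes, 28 (32.9%) had a SoleS to SoleG ratio of at least 2, against 13.3% of the other 5334 genes outside the set, while 16.5% and 18.4% had a ratio of 0.5 or less. Their median log2 ratio was 0.38, against -0.15 for the others. At an ID distance of 2 the median was -0.03, and from 3 on it lay between -0.29 and -0.14. These 28 genes stood beside 23 of the 45 members. PK2464, beside PK2465, had 348 and 410 CPM in SoleG, 972 and 873 CPM in GS, and 12884 and 13465 CPM in SoleS, and missed membership by its ratio over GS of 14.3. PK0689, beside PK0688, had 16.8 and 17.9 CPM in SoleG, 8.90 and 7.98 CPM in GS, and 216 and 191 CPM in SoleS. The neighbours could also be strongly lower: PK5036, beside PK5037, had 5137 and 5899 CPM in SoleG and 280 and 287 CPM in SoleS. PK2464, PK0689 and PK5036 were picked after their values were seen. The handling of strand in counting is not given, so reads of overlapping genes cannot be told apart, and the part of such reads in these values was not tested.

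**Figure D5:**
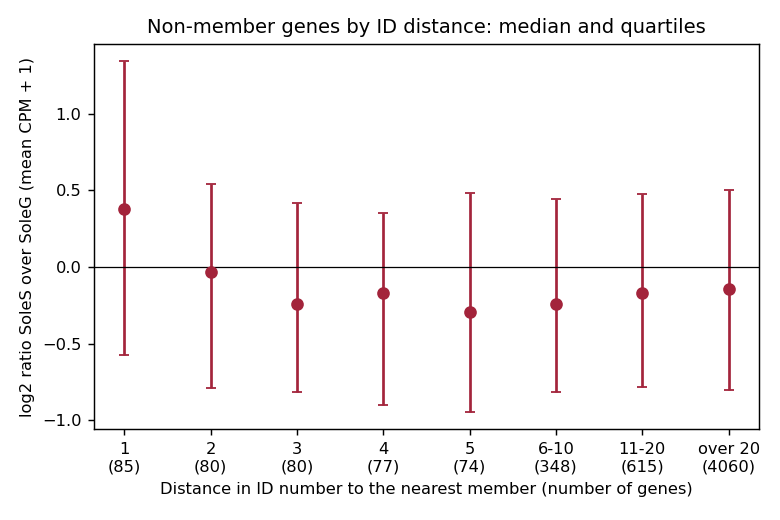
Log2 ratio of SoleS over SoleG (mean CPM + 1) of genes outside the set, by distance in ID number to the nearest member; points are medians, bars the quartiles, and the number of genes stands under each. The median is 0.38 at a distance of 1, from 85 genes, and between -0.29 and -0.03 farther away.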

How the data were processed

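RNA was sequenced from 6 libraries, 2 for each of 3 media. Per the submitters' processing notes, Bowtie2 2.2.5 was used. How reads were counted (tool, strand, shared reads), and on which build and annotation, is not given in the sources used here. Each deposited file lists raw counts, FPKM values and coding lengths of 5464 genes, per the file headers. FPKM values deposited by the authors for GS replicate 2 were divided by 6744749, the total of GS replicate 1, so CPM was computed here from the counts and each library's own total. FPKM entered only an alternative choice of the genes.

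GS was tested against SoleG with edgeR 4.0.16 in R 4.3.3 (filterByExpr, 5280 genes kept; TMM factors 0.957 to 1.08; glmQLFTest; 1 model of the 3 media with 3 residual degrees of freedom). An exact test of 2 against 2 libraries cannot go below p = 0.333. Fold changes given with a test are on the TMM scale; CPM values are not TMM-scaled. The standard error is the log2 fold change divided by the square root of F. The test was checked on simulated counts. Counting intervals are Clopper-Pearson intervals at 95%. Alternatives used DESeq2 1.42.0, limma 3.58.1 (voom), other scalings, filters and libraries. The replicate numbers did not pair libraries across media.

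The members and gene lists were chosen with earlier results of these data known. Genes named with values were the 8 most abundant in SoleS, the 5 with the largest ratio over each glucose medium, the 5 largest called changes each way in GS, the longest and shortest, those nearest each threshold, and members with adjacent IDs; others are given as examples chosen after their values were seen.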

Additional observations from a re-analysis of the deposited data

How the results depend on the processing

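The set itself had 45 genes and stayed at 43 to 47 with TMM-scaled CPM, with no added value, with deposited FPKM, with other level thresholds, or with every SoleS library set against every other library; 39 remained with 5 added. A ratio threshold of 8 gave 84 genes and one of 32 gave 30. With a library left out it was 44 or 45. Their SoleS share was 22.0%, 21.8% to 22.1% by library and 17.0% without PK3770. The genes lower and higher in GS numbered 21 and 7. With a library left out, the median log2 fold change of the 45 was -0.46 to -0.27. For all genes tested it was -0.01 to -0.0004. No count of called genes is given with a library left out, since 1 medium then had 1 library. In the other settings 18 to 23 were lower and 5 to 8 higher, with 20 and 7 in DESeq2 and 19 and 7 in limma-voom. Over all genes tested, those settings called 11.8% to 32.4% lower and 13.2% to 21.3% higher, with 11.8% and 17.1% in DESeq2. The fit with the replicate block gave 20 and 7, and between media the replicate 1 to 2 differences had correlations of -0.04, -0.10 and 0.05. Of 10 genes named for their change in GS, PK0942 missed the threshold in 1 setting and was filtered out in the fit to the SoleG and GS libraries alone, as given above, and none changed direction where tested. The median log2 ratio of genes with an ID next to a member, 0.38, was 0.53 with TMM-scaled CPM, where the other genes moved by as much, 0.15 within an ID distance of 2, and 0.38 to 0.41 with a library left out. Ratios of genes under 5 CPM in glucose depend on the added value. Ratios of the named members under other scaling, added values and libraries were chosen after the data were seen.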
